A study of Mus musculus with 68 samples.

Results

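The maturation of the wild-type (WT) mouse cerebrum after birth was followed on 8 of the 68 arrays of the series, chosen as all arrays of WT cerebrum at 0 d, 10 d, 20 d and 4 wks, with 2 arrays at each age. The 4 early arrays (0 and 10 d) were compared with the 4 late arrays (20 d and 4 wks), and each step between neighbouring ages was tested as well. The WT mice were of the FVB strain, and the RNA of 6 mice at each age was combined into 2 pools of 3 mice, so that each array measured a pool and no mouse was measured at a pair of ages. The changes were set beside those of WT cerebellum at the same ages (8 arrays) and beside those of PS-/- cerebrum (8 arrays of mice aged 0, 10, 20 or 25 d). PS-/- mice are FVB mice that lack prosaposin, the precursor of the saposins that assist lysosomal breakdown of sphingolipids, in every tissue. The series was made to follow expression in prosaposin deficient brains over time, and the WT ages give the course on which those brains are read.

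At birth the mouse cerebrum still holds dividing progenitors and young neurons that extend axons, while most glial cells have yet to mature. In the following weeks astrocytes mature, synapses form in large numbers and are refined by activity, and oligodendrocytes wrap axons in myelin, a membrane sheath rich in galactolipids and cholesterol. Inhibitory interneurons acquire their adult channels and calcium-binding proteins late in this period, when a net of matrix proteins forms around many of them.

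Values are log2(signal + 16) after quantile normalization, so that 4 stands for no signal and 1 unit for a doubling well above that floor. A fold change on this scale understates the change of dim genes, and levels of different genes are not comparable. Of 18193 genes with a probe set of their own, 2187 (12%) rose and 2303 (12.7%) fell from early to late at an adjusted p under 0.05 in the moderated test of limma, which is the test behind each adjusted p given here. The change was at least 2-fold in 952 of the risen genes (5.23% of all) and 931 of the fallen (5.12%). The early and late pools did not overlap in 18.6% of all genes. The median change over all genes was -0.01. Of the 9367 called probe sets (20.8% of 45037) 46.4% were higher late, and this share was 24.1% with each array centred on its median, where the median change of all probe sets was -0.118 in place of 0.006, and 59.9% with the authors' scaling alone, where it was 0.246. The p values measure the spread between pools, and in bulk tissue fewer cells of a type and less RNA per cell cannot be told apart.

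The forebrain marker Lhx2 measured 12.11 to 12.63 and Tbr1 11.26 to 12.38 in the 8 pools, and both were picked outside the rule for named genes. Other forebrain markers were less steady. The 8 measured members changed by -1.43 (Neurod6) to 2.28 (Camk2a) from early to late, and their summed signal was 47343 to 94295. The cerebellar neuron markers set a pair of pools apart. Gabra6, a receptor subunit of cerebellar granule cells, measured 11.88 in 20 d pool 1 and 9.61 in 10 d pool 2 against 4.95 to 8.67 in the other pools. Pcp2, a Purkinje cell gene, measured 13.26 and 12.22 in these pools against 6.75 to 9.59. The summed signal of the 9 measured cerebellar markers was 45855 in 20 d pool 1 and 19706 to 26879 in the other 7 pools. Array properties moved with age as well, with median signals of 263.6 to 298.9 early and 334.2 to 393.5 late and actin 3'/5' ratios of 1.16 to 1.4 early and 1.55 to 1.81 late, and their part in the results was not tested. Leaving out the pools with raised cerebellar markers, a choice made after their values were seen, left 6491 probe sets called from early to late against 9367 with all pools, and counts without them stand beside the lists and steps whose count moved by more than 1.5 times.

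Genes of myelin had the largest median rises of the 31 gene lists. Counts of list members that rose or fell from early to late stand beside 12% of all genes risen and 12.7% fallen. Of 17 measured genes of myelin structure, 15 rose and none fell (median 2.87). All 11 measured enzymes and carriers of myelin lipids rose (median 1.58). Mobp, a structural protein of compact central myelin, measured 5.11 and 5.31 at 0 d, 12.38 and 13.19 at 10 d, 15.53 and 15.65 at 20 d and 15.78 and 15.96 at 4 wks. Its rise was the largest among called genes whose early and late pools do not overlap, at 6.73 (SE 0.29, adjusted p = 9.45e-13), and its mean signal went from 3720.9 in the early pools to 63162.9 in the late pools. The 10 d pools already stood far above those at birth.

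Mal, a proteolipid of myelin membranes, followed a later course than Mobp, measuring 8.16 and 7.36 at 0 d, 10.49 and 10.36 at 10 d, 14.44 and 14.73 at 20 d and 15.15 and 15.12 at 4 wks. It rose by 5.76 (SE 0.21, adjusted p = 1.3e-13) and its step from 10 to 20 d was 4.16. Mog, a glycoprotein on the outer face of the sheath, measured 5.69 and 5.58, then 10.54 and 10.88, then 13.57 and 13.44, then 13.24 and 13.22, a rise of 5.19 (SE 0.23, adjusted p = 1.41e-12). In each of these genes the late pools lay above all early pools. Mbp, the major protein that compacts the sheath, had reached most of its late level by 10 d, measuring 10.45 and 10.89 at birth, 16.11 in both 10 d pools and 16.44 to 16.52 late. It was among the brightest probe sets of these arrays, where quantile normalization gives equal values to pools in which a gene has the same rank. Ermn, Opalin and Cldn11, proteins of the oligodendrocyte cytoskeleton, surface and tight junctions, rose by 4.28, 3.79 and 2.87. Cd9 and Cntn2 were the myelin members that did not pass, at 0.15 and 0.14.

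Among the lipid enzymes, Ugt8a makes galactosylceramide, the main galactolipid of myelin. It measured 9.34 and 8.34 at 0 d, 12.64 and 12.23 at 10 d, 14.54 and 14.57 at 20 d and 14.44 and 14.52 at 4 wks, a rise of 3.88 (SE 0.2, adjusted p = 2.48e-11). Fa2h, which hydroxylates its fatty acids, rose by 3.45, Aspa, which supplies acetate from N-acetylaspartate, by 3.07, and Pllp, a myelin proteolipid of the same list, by 1.95. The list rose by a median of 1.48 from 0 to 10 d and 1.19 from 10 to 20 d, and the median change from 20 d to 4 wks was -0.32 with no member called.

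Of 14 genes of the oligodendrocyte lineage 7 rose and 2 fell (median 0.53). The falls (14.3%) were near the 12.7% of all genes that fell, while 12% of all genes rose. Bcas1, a gene of oligodendrocytes that are starting to myelinate, measured 10.87 and 11.04 at 0 d, 14.31 and 14.53 at 10 d, 15.03 and 14.83 at 20 d and 14.95 and 15.21 at 4 wks. It rose by 2.32 (SE 0.11, adjusted p = 5.38e-12). The rise of Bcas1 shrank to as little as 0.638 in 20 alternative fits, of which 2 did not pass. The transcription factor Nkx6-2 rose by 2.25. Pdgfra, the growth factor receptor of oligodendrocyte precursors, measured 12.38, 12.46, 13.18 and 12.89 in the early pools and 11.82 to 11.95 in the late pools, a fall by 0.82 (adjusted p = 0.00039), and the Wnt pathway factor Tcf7l2 fell by 1.57. With each array centred on its median in place of quantile normalization, 3 lineage members rose, and 4 rose without the pools with cerebellar markers.

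**Figure D1:**
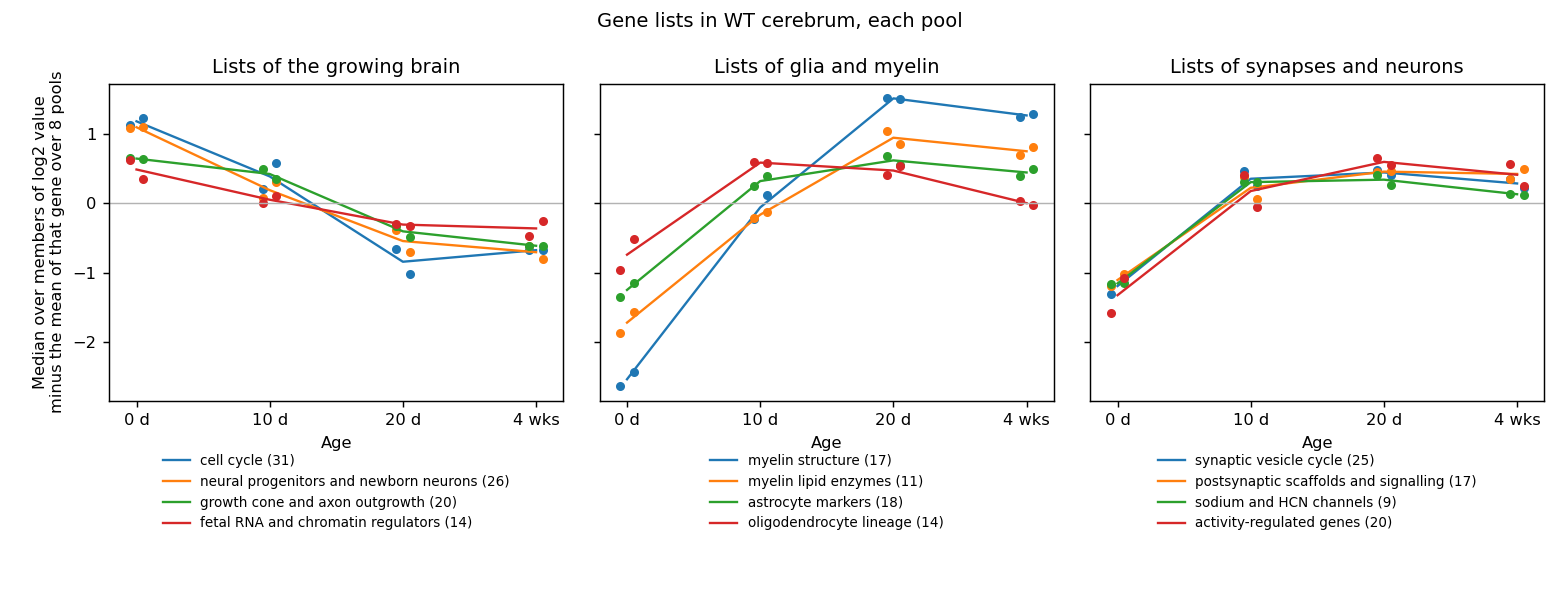
Median over the measured members of 12 gene lists in each WT cerebrum pool (y axis: log2 value of a gene minus its mean over the 8 pools; x axis: age; points: pools; lines: means of the 2 pools at an age; number of members in brackets). Myelin structure went from -2.64 and -2.44 at 0 d to 1.52 and 1.51 at 20 d, cell cycle genes from 1.13 and 1.24 to -0.66 and -1.03, and the growth cone list lay at 0.49 and 0.35 at 10 d and at -0.32 and -0.49 at 20 d.

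Astrocyte markers rose in 15 of 18 cases, with 1 fall (median 0.97), and most of their rise lay before 10 d. Ntsr2, a neurotensin receptor of astrocytes, measured 9.99 and 10.25 at 0 d, 13.39 and 13.76 at 10 d, 14.86 and 14.89 at 20 d and 14.56 and 14.77 at 4 wks, a rise of 2.92 (SE 0.13, adjusted p = 9.45e-13). Slc1a2, the main glutamate transporter of astrocytes, measured 11.48 and 11.64 at birth, 15.48 and 15.33 at 10 d and 15.52 to 15.86 late, and rose by 2.20 (SE 0.18, adjusted p = 2.05e-08). Kcnj10, their inward-rectifying potassium channel, rose by 2.08. The gap junction gene Gjb6 came later, with a rise of 2.56 and steps of 1.17 to 10 d and 2.21 to 20 d. The list's median change was 1.45 in the step to 10 d, where 16 of 18 members rose against 8.87% of all genes, and 0.34 in the next, where 4 rose against 2.06%. Sox9, the member that fell, changed by -0.70 and was named after its value was seen.

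Synaptic genes rose together in the step from 0 to 10 d. Of 25 genes of the synaptic vesicle cycle, 15 rose and 1 fell from early to late (median 0.77), and 20 rose from 0 to 10 d (median 1.37) against 8.87% of all genes in that step. Vamp1, a vesicle SNARE protein, measured 9.26 and 9.78, then 11.39 and 11.58, then 13 and 12.81, then 12.8 and 12.82, and rose by 2.35 (SE 0.17, adjusted p = 2.8e-09). Its late pools lay above all early pools. Syn2, a synapsin that tethers vesicles, and Cplx1, which clamps the release machinery, rose by 1.46 and 1.32. Another synapsin, Syn3, went the other way, measuring 12.32, 12.24, 11.52 and 11.6 early and 9.37 to 10.32 late, a fall by 2.01 (SE 0.2, adjusted p = 3.27e-07).

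On the receiving side, 11 of 17 postsynaptic scaffold and signalling genes rose and none fell (median 0.85; 1.52 from 0 to 10 d). Dlg1, a scaffold of glutamate receptors, measured 10.86 and 10.42 at 0 d, 13.19 and 12.58 at 10 d and 13.33 to 13.54 late, and rose by 1.71 (SE 0.15, adjusted p = 7.64e-08). Camk2a, the calcium-dependent kinase of excitatory synapses, rose by 2.28 (adjusted p = 2.11e-05), although its 10 d pool 1, at 15.43, reached the late range of 15 to 15.86. Cnksr2 rose by 1.78 and Camk2n1, an inhibitor of that kinase, by 1.17. The rise of Cnksr2 shrank to as little as 0.579 in 20 alternative fits, of which 1 did not pass. Of 21 glutamate receptor genes 6 rose and 3 fell (median 0.37, and -0.03 with arrays centred on the median). The falls (14.3%) were near the 12.7% of all genes that fell. Grin2c at 2.36 and Gria1 at 1.05 were among the rises, and Grin3a, an NMDA receptor subunit of young neurons, was among the falls at -1.05. That list's count of rises was 3 both with centred arrays and without the pools that carried cerebellar markers.

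Of 20 genes of GABA and glycine transmission, 9 rose and 3 fell (median 0.52). The falls (15%) were near the 12.7% of all genes that fell. The count of rises was 3 with centred arrays, 3 without the pools with cerebellar markers and 5 without 20 d pool 1 alone, and 1 fell without the pools with cerebellar markers. Gabrd, a subunit of receptors outside the synapse, measured 8.23 and 8.34 at birth, 11.42 and 11.31 at 10 d, 12.52 and 12.13 at 20 d and 11.75 and 11.84 at 4 wks, a rise of 2.23 (SE 0.18, adjusted p = 2.01e-08). Gabra4 rose by 1.69. Glra2, the glycine receptor subunit of the immature brain, measured 12.82 and 12.46 at birth, 10.87 and 10.57 at 10 d and 9.7 to 10.48 late, a fall by 1.5 (adjusted p = 0.000869).

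Interneuron markers rose in 8 of 16 cases and fell in 2 (median 0.77), with 1 fall without the pools with cerebellar markers. Over all genes 12% rose and 12.7% fell, so the falls in this list (12.5%) were near that share. Pvalb, the calcium buffer parvalbumin of fast-spiking interneurons, measured 8.66 and 8.68 at 0 d, 10.81 and 11.19 at 10 d, 13.83 and 13.54 at 20 d and 13.67 and 13.57 at 4 wks. It rose by 3.81 (SE 0.16, adjusted p = 7.27e-13), by 2.33 in the step to 10 d and 2.68 in the step to 20 d. Vip, a peptide of another interneuron class, measured 9.09 and 9.03, then 11.63 and 11.18, then 12.3 and 12.64, then 13.33 and 13.15, and rose by 2.62 (SE 0.24, adjusted p = 8.46e-08). Both genes had no overlap between early and late pools. The peptide gene Cck rose by 1.1. Reln, a secreted guidance protein of early-born neurons and some interneurons, fell by 1.41, with its largest step, -1.09, between 10 and 20 d. Its change from early to late shrank to as little as -0.487 in 20 alternative fits, of which 1 did not pass.

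Of 9 sodium and HCN channel genes 5 rose and 2 fell (median 0.96), with 1 fall without the pools with cerebellar markers. Scn4b, an auxiliary sodium channel subunit, measured 6.78 and 6.71 at birth, 10.91 and 10.96 at 10 d, 12.18 and 11.83 at 20 d and 12.91 and 12.59 at 4 wks, a rise of 3.54 (SE 0.21, adjusted p = 2.68e-10). Scn2b rose by 2.29, the pore subunit Scn1a by 1.88 and the pacemaker channel Hcn2 by 1.22. Genes of perineuronal nets and brain matrix rose in 7 of 16 cases and fell in 5 (median 0.46). The link proteins Hapln4 and Hapln2 rose by 2.55 and 2.96. Tnc, a glycoprotein of the young matrix, measured 12.05, 12.33, 11.52 and 11.52 early and 9.03 to 10.01 late, and fell by 2.37 (SE 0.23, adjusted p = 1.74e-07).

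Activity-regulated genes, which neurons switch on within minutes to hours of firing, rose in 12 of 20 cases with no fall (median 0.92). The count was 7 with centred arrays and 8 without the pools with cerebellar markers. Arc, which acts in the removal of glutamate receptors from synapses, measured 5.9 and 5.59 at 0 d, 11.03 and 10.63 at 10 d, 13.4 and 13.27 at 20 d and 12.71 and 12.64 at 4 wks. It rose by 4.71 (SE 0.42, adjusted p = 8.21e-08), and its 0 d pools were close to the floor of the scale. The transcription factor Egr1 measured 11.06 and 11.4 at birth, 14.75 and 13.95 at 10 d and 14.69 to 15.06 late, so that a 10 d pool overlapped the late range, and rose by 2.05 (SE 0.18, adjusted p = 6.8e-08). Nptx1, a secreted pentraxin of synapses, and Junb rose by 1.75 and 1.60. Npas4, Bdnf and Fosb, named after their values were seen, did not pass at 1.25, 0.85 and 0.75.

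**Figure D2:**
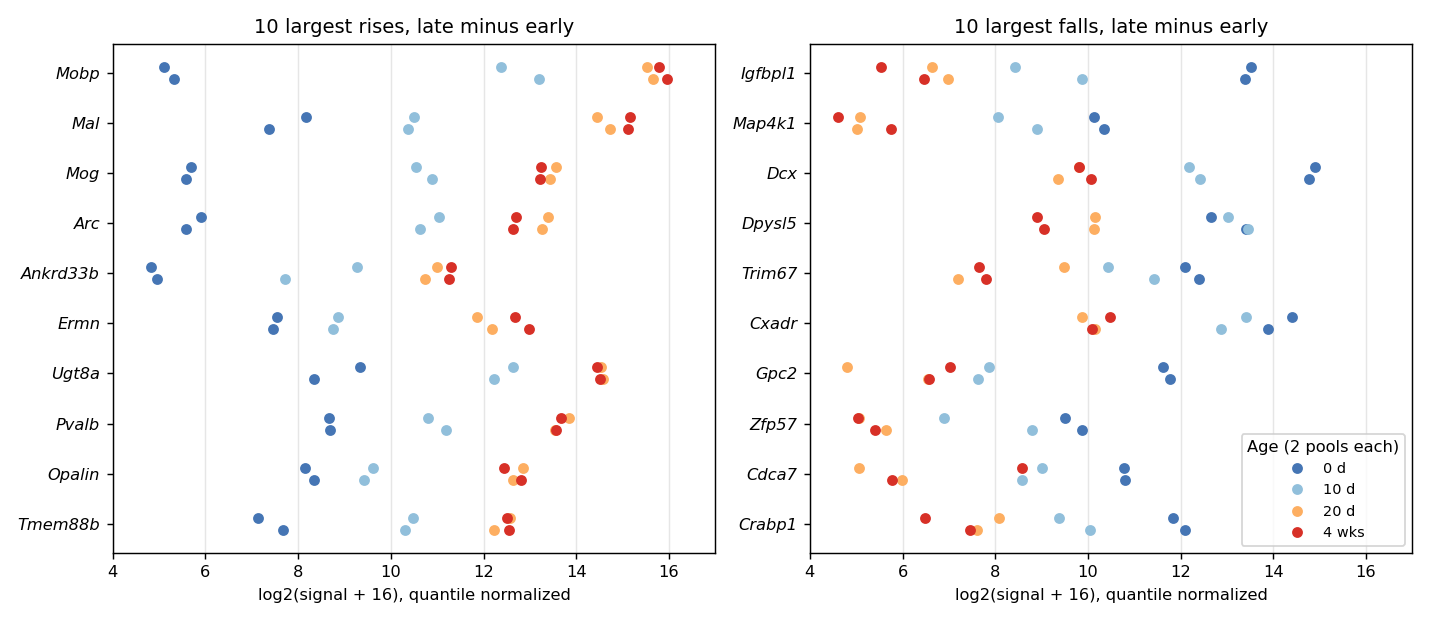
The 10 largest rises (left) and falls (right) from early to late among called genes whose 4 late pools do not overlap the 4 early pools (x axis: log2(signal + 16), quantile normalized; points: pools, coloured by age). Mobp spans 5.11 at 0 d to 15.96 at 4 wks, and Igfbpl1 goes from 13.52 and 13.39 at 0 d to 5.54 and 6.46 at 4 wks.

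Genes of young neurons were among the largest falls. Igfbpl1, a member of the insulin-like growth factor binding protein family, measured 13.52 and 13.39 at 0 d, 8.43 and 9.87 at 10 d, 6.64 and 6.98 at 20 d and 5.54 and 6.46 at 4 wks, a fall by 4.89 (SE 0.43, adjusted p = 6.75e-08). Dcx, the microtubule protein doublecortin of migrating neurons, measured 14.9 and 14.76 at 0 d, 12.19 and 12.42 at 10 d and 9.35 to 10.07 late, a fall by 3.81 (SE 0.31, adjusted p = 1.76e-08) that appeared on all 4 of its probe sets. In both genes the late pools lay below every early pool. Of 26 measured genes of neural progenitors and newborn neurons, 16 fell and none rose (median -0.98), against the 12.7% of all genes that fell. Cd24a, a surface protein of young neurons, fell by 3.08 and the transcription factor Sox4 by 1.95. Neurod1, Pax6 and Nes were among the 10 members that did not pass, with -0.57, -0.30 and -0.64. These 3 were named after their values were seen.

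Cell cycle genes fell in 23 of 31 cases and rose in 1 (median -1.67). The median log2 change was -0.74 from 0 to 10 d and -1.45 from 10 to 20 d. The summed signal lost more before 10 d, with 65768 and 68420 at 0 d, 30792 and 37794 at 10 d and 20229 and 19858 at 20 d. The 10 d pools differed, with centred list medians of 0.20 in pool 1 and 0.58 in pool 2, which carried cerebellar markers. Mcm7, a subunit of the helicase that opens DNA for replication, measured 13.11 and 13.39 at 0 d, 11.49 and 11.97 at 10 d, 11.13 and 11.04 at 20 d and 11.17 and 11.13 at 4 wks. It fell by 1.37 (SE 0.16, adjusted p = 2.46e-06), mostly in the step to 10 d (-1.52, adjusted p = 9.67e-05). Ube2c, a ubiquitin-conjugating enzyme of mitotic exit, followed a later course, measuring 10.91 and 11.07, then 9.99 and 10.78, then 8.51 and 7.48, then 8.12 and 8.23. It fell by 2.60 (SE 0.38, adjusted p = 3.77e-05), with -2.39 in the step from 10 to 20 d. Cdc20, the activator of the same degradation machinery, and Mcm5, another helicase subunit, fell by 1.96 and 1.67, and neither had overlapping early and late pools. Tpx2, a spindle assembly factor, was the 1 cell cycle member that rose (1.07, adjusted p = 0.0157), and its 4 probe sets disagreed, since 2 rose and 2 fell. Without the pools with cerebellar markers 18 of the list fell and none rose.

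Promoters of cell cycle genes are known to carry certain elements, among them CCAAT, the box bound by NF-Y, and TTTGAA, the core of the element bound by the DREAM complex that silences cycle genes in resting cells. Windows of 250 bases before the annotated start were searched on both strands in the RefSeq promoters of build GRCm38.p6. CCAAT was found in 20 of 22 windows (90.9%) of the 20 fallen cell cycle genes that had one, in 24 of 28 windows (85.7%) of all measured members and in 33.8% of the 32851 windows of all genes. TTTGAA was found in 7 of 22 windows (31.8%) of the fallen genes, 32.1% of those of all measured members and 16% of all windows. For the E2F type site TTTGGCGC these were 2 of 22 (9.09%), 7.14% and 0.417%. For TTTCCCGC, also searched, they were 1 of 22 (4.55%), 3.57% and 0.895%. CCAAT was found in 2 of 12 windows (16.7%) of the 10 fallen growth cone genes, of 16 described next, that had one. It was found in 7 of 13 windows (53.8%) of the 8 risen activity-regulated genes with a window. For the 13 risen myelin genes with a window it was 9 of 21 windows (42.9%). Each start of a gene counts as a window, and windows of nearby starts overlap, as in Egr2, so these shares do not count genes. A match is a description of the letters and not evidence of a bound site. The last 150 bases before the start are shown for the 4 cell cycle genes named above and for Dpysl5, a fallen growth cone gene, to set a window with matches beside one without. Capitals mark these motifs and the CRE site TGACGTCA in either orientation, none of the marked matches overlap, and Mcm7 has a second start that is not shown. The windows shown lie at chr2:164769779-164769928 (plus strand, Ube2c), chr4:118437344-118437493 (minus, Cdc20), chr8:75109359-75109508 (plus, Mcm5), chr5:138171267-138171416 (minus, Mcm7) and chr5:30711414-30711563 (plus, Dpysl5).
Ube2c: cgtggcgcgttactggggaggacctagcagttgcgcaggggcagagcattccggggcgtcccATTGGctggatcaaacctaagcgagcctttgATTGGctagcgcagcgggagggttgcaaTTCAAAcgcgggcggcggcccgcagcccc
Cdc20: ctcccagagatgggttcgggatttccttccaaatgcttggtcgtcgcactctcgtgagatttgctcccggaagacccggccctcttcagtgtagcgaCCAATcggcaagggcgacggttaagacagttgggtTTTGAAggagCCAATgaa
Mcm5: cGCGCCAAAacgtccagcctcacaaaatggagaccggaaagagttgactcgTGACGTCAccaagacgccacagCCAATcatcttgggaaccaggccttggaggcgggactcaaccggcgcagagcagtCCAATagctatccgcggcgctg
Mcm7: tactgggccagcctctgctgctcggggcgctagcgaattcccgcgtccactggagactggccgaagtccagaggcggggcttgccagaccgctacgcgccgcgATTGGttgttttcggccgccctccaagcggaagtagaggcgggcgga
Dpysl5: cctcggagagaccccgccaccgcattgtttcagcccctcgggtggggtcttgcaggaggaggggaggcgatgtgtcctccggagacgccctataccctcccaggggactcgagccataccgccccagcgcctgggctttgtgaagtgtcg

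Genes of the growth cone and of axon outgrowth fell, more of them after 10 d than before. Of 20 measured members 16 fell and none rose (median -1.16), with a median change of -0.13 from 0 to 10 d, where 1 fell. This was Draxin, a guidance factor named after its value was seen, at -2.56. In the step from 10 to 20 d 9 of the 20 fell, against 2.22% of all genes. Dpysl3, a collapsin response mediator that steers the cytoskeleton of growing axons, measured 15.09 and 15.23 at 0 d, 15.04 and 15.01 at 10 d, 12.2 and 11.9 at 20 d and 11.92 and 11.72 at 4 wks. It changed by -0.14 in the step to 10 d (adjusted p = 0.785), by -2.98 in the step to 20 d (adjusted p = 1.09e-07) and by -3.16 from early to late (SE 0.16, adjusted p = 7.78e-12). Its relative Dpysl5 measured 12.66, 13.4, 13.01 and 13.45 in the early pools, 10.15 and 10.13 at 20 d and 8.9 and 9.05 at 4 wks, a fall by 3.57 (SE 0.23, adjusted p = 7.05e-10). Crmp1, of the same family, and the adhesion molecule Ncam1 fell by 2.31 and 1.86, with steps of -1.87 and -1.95 from 10 to 20 d. The change of Ncam1 from early to late shrank to as little as -0.416 in 20 alternative fits, of which 1 did not pass. The early and late pools of these 4 genes did not overlap.

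Of 19 tubulin, neurofilament and related genes 4 rose and 6 fell (median -0.18, and 0.004 with the authors' scaling alone). Tubb3, the tubulin of young neurons, measured 15.24, 15.42, 14.69 and 14.31 early and 12.49 to 13.12 late, and fell by 2.02 (SE 0.15, adjusted p = 3.58e-09). Nefh, the heavy neurofilament subunit of thick axons, rose by 1.76, Tuba4a by 1.17 and Map7 by 1.38. Regulators of the fetal state fell in 6 of 14 cases with no rise (median -0.51). Hmgb3 and Hmgb2, chromatin proteins of dividing cells, fell by 1.73 and 2.08, the histone methyltransferase Ezh2 by 1.41 and Uhrf1, which maintains DNA methylation, by 2.90.

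**Figure D3:**
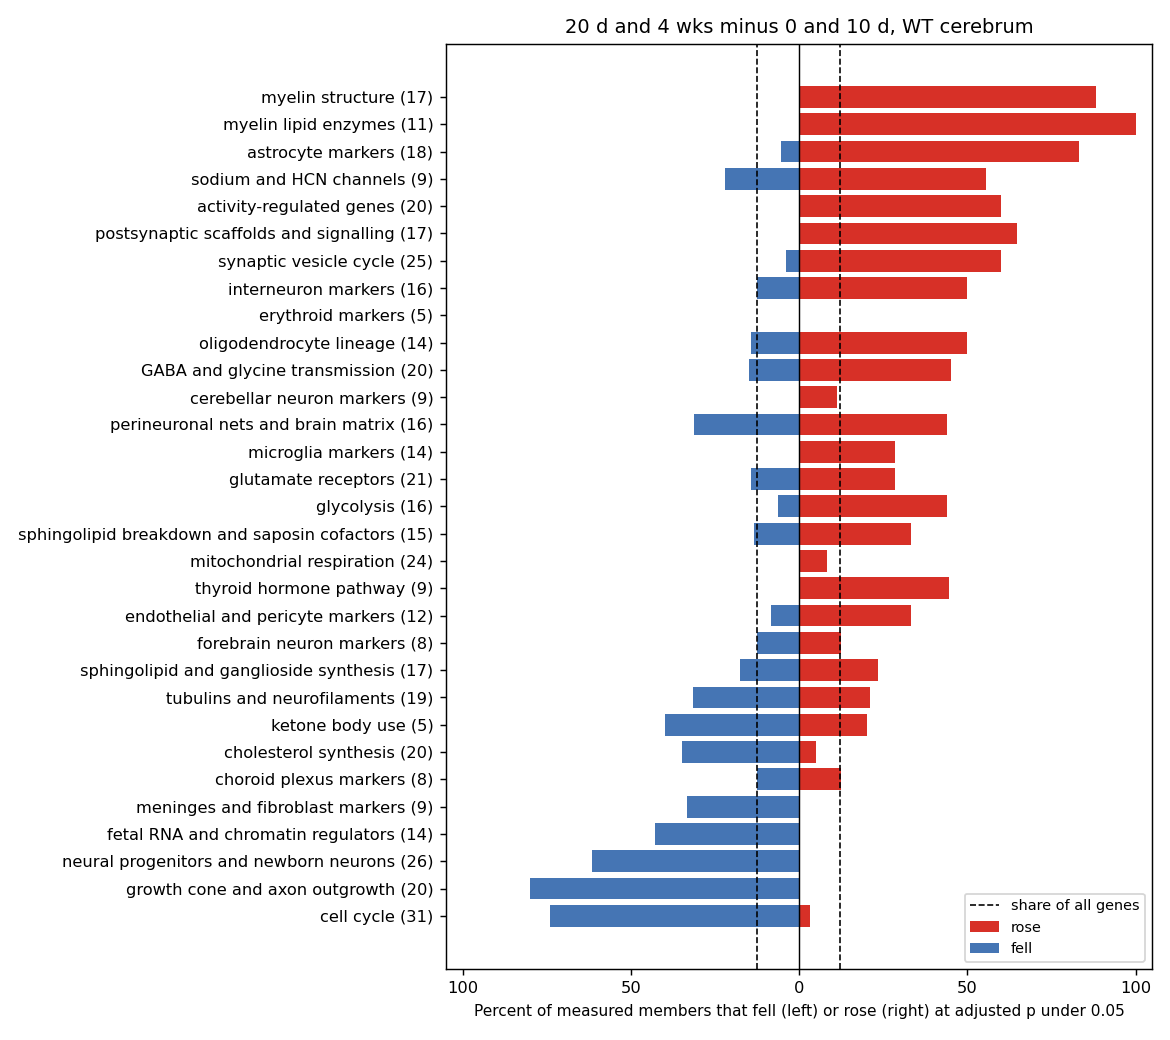
Percent of the measured members of each of the 31 gene lists that fell (left bars) or rose (right bars) from early to late at an adjusted p under 0.05, ordered by the lists' median change (number of members in brackets). The dashed lines mark the 12.7% of all genes that fell and the 12% that rose, and 15 of 17 myelin genes rose where 23 of 31 cell cycle genes fell.

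Metabolic lists moved less, beside shares over all genes of 12% risen and 12.7% fallen. Genes listed for cholesterol synthesis fell in 7 of 20 cases (median -0.25), and 12 fell with centred arrays. The 1 rise of the list was Cyp46a1, which is not an enzyme of synthesis. Sqle, Fdps and Tm7sf2, enzymes of the pathway from farnesyl units to sterols, fell by 0.93, 0.92 and 0.94. In 20 alternative fits the change of Fdps shrank to as little as -0.014, and 1 fit did not pass. Cyp46a1, which hydroxylates cholesterol for export from neurons, measured 10.71 and 11.29 at birth, 13.27 and 13.37 at 10 d and 13.34 to 14.06 late. It rose by 1.52 (SE 0.18, adjusted p = 2.95e-06). Glycolysis rose in 7 of 16 cases and fell in 1 (median 0.35), with 3 rises when arrays were centred. The glucose transporter Slc2a1 measured 12.63 to 12.91 early and 13.69 to 14.21 late, a rise of 1.19, and the enolase Eno2 and aldolase Aldoc rose by 0.93 and 0.86. Ketone bodies are a fuel of the suckling brain. Of 5 genes listed for their use, the only rise was that of Acss2, an enzyme of acetate and not of ketone bodies, by 0.88. Bdh1 and Acat1 fell by 0.77 and 0.69 (list median -0.25, and 0.014 when a gene's probe sets were averaged). The early group joins ages that differed in this list. From 0 to 10 d 3 members rose and 1 fell (median 0.80), against 8.87% of all genes risen. The median step to 20 d was -0.56. The summed signal was 93939 and 84707 in the 10 d pools and 56062 to 65512 at the other ages. Mitochondrial respiration had 2 rises of 24 (median 0.09), Idh3b at 0.52 and Sdha at 0.45, but with centred arrays the median was -0.19 with 5 falls and no rise, and with the authors' scaling 7 rose.

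Thyroid hormone is known to act on the maturing brain, and its part in these changes was not tested. Of 9 genes of its pathway 4 rose (44.4%, against 12% of all genes) with no fall (median 0.09). Dio2, which activates the hormone in astrocytes, measured 9.6 and 9.81 at 0 d, 11.75 and 12.12 at 10 d, 13.53 and 13.41 at 20 d and 12.72 and 13.21 at 4 wks, a rise of 2.40 (SE 0.28, adjusted p = 3.06e-06). The hormone's target genes Klf9, Hr and Nrgn rose by 1.73, 1.5 and 1.04. Hr, a corepressor of its receptor, stood out by falling again by 1.45 from 20 d to 4 wks (adjusted p = 0.0344), from 11.79 and 11.56 to 10.25 and 10.19.

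Psap, the prosaposin gene itself, measured 14.71 and 15.09 at 0 d, 15.28 and 14.86 at 10 d, 15.11 and 14.92 at 20 d and 15.53 and 15.29 at 4 wks, so that the early and late pools overlapped. Its change of 0.22 (SE 0.12) did not pass (adjusted p = 0.201). Of 15 genes of sphingolipid breakdown 5 rose and 2 fell (median 0.22, and -0.07 with no rise when arrays were centred). The falls (13.3%) were near the 12.7% of all genes that fell. Gm2a, the activator protein of ganglioside breakdown, rose by 0.81 and the sorting receptor Sort1 by 0.69, and the ceramidase Asah1 rose by 0.56 (0.43 and adjusted p = 0.123 without 20 d pool 2). The mean over the probe sets of Gm2a changed by -0.21 (adjusted p = 0.568). Galc, the enzyme that breaks down galactosylceramide, measured 8.92, 9.08, 9.33 and 8.58 early and 7.38, 8.71, 6.57 and 7.08 late, a fall by 1.54 (adjusted p = 0.00412) in which a 20 d pool overlapped the early range. The rises numbered 2 without the pools with cerebellar markers and 3 without 20 d pool 1, with 1 fall in either case. Of 17 genes of sphingolipid and ganglioside synthesis 4 rose and 3 fell (median -0.18, with 8 falls when arrays were centred). St3gal5 and St8sia5, sialyltransferases of gangliosides, both rose by 1.15 and the ceramide synthase Cers2 by 1.01, while Ugcg, which makes glucosylceramide, fell by 1.5. Cebpd, the transcription factor on which the study centred, changed by 0.60 (SE 0.22, adjusted p = 0.0584), measuring 9.05 to 9.82 early and 9.72 to 10.4 late.

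Markers of other cell types were read in the same way, beside the 12% of all genes that rose and the 12.7% that fell. Of 14 microglia markers 4 rose and none fell (median 0.38, and -0.03 with 1 rise when arrays were centred), and their summed signal was 24390 to 67254 early and 52813 to 68889 late. The receptors P2ry12 and Csf1r rose by 0.87 and 0.80, the protease Ctss by 1.19 and Tmem119 by 0.98. P2ry12 measured 9.59 and 9.54 at birth and 12.14 and 11.99 at 10 d, above the 11.36 to 11.97 of the late pools. Endothelial and pericyte markers had 4 rises, Flt1 and Abcb1a at 1.32 and 0.98 among them, and 1 fall, the tight junction gene Cldn5 at -0.71, of 12 (median 0.06, and -0.29 with centred arrays). Of 9 markers of meninges and fibroblasts 3 fell, Col3a1, Igf2 and Col1a1 by 0.89, 0.70 and 0.71 (Col1a1 -0.46 and adjusted p = 0.258 without 4 wks pool 2), with summed signals of 23819 to 28297 early and 17087 to 23232 late, and only 1 fell without the pools with cerebellar markers. Of 8 choroid plexus markers Kl rose by 1.18 (0.81 and adjusted p = 0.103 without 20 d pool 2) and Otx2 fell by 0.86. Ttr, the defining gene of that tissue, lay between 16.07 and 16.33 in all pools. This is near the top of the scale, where quantile normalization evens out values, so it does not show a steady amount of the tissue. The summed signal of the 8 markers was 68775 to 97202 early and 91308 to 110368 late. None of 5 erythroid markers passed, and their summed signals were 710 to 2158 early and 1584 to 2924 late. Of 8 forebrain neuron markers Camk2a rose and Neurod6 fell by 1.43. Of 9 cerebellar neuron markers Calb1 rose by 0.99, and the list's median of 0.51 was -0.18 without 20 d pool 1. The choroid plexus and forebrain lists each had 12.5% risen and 12.5% fallen, and the cerebellar list 11.1% risen. These counts were near the shares over all genes. The part of these cell types in the other results was not tested.

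Several textbook switches from an early to a late partner were read gene by gene, and not all showed in both partners. Tubb3 fell while Tubb4a, a tubulin of oligodendrocytes and mature neurons, rose by 0.70 (adjusted p = 0.00686). Vcan, a matrix proteoglycan of the young brain, fell by 1.76 and Bcan, an adult counterpart, rose by 0.56 (adjusted p = 0.0191). Scn1a rose, and Scn3a, the sodium channel of immature neurons, measured 11.98, 11.73, 11.4 and 10.8 early and 10.29 to 11.09 late, a change of -0.83 that did not pass (adjusted p = 0.0872). Dlg4, the scaffold PSD-95, rose by 1.22, with a step of 1.40 from 10 to 20 d, while Dlg3 changed by 0.15 (adjusted p = 0.554) after a rise of 1.83 to 10 d and a fall by 0.89 to 20 d. Of the NMDA receptor subunits, Grin2b changed by 0.47 (adjusted p = 0.0925) and Grin2a by 0.42 (adjusted p = 0.495), although Grin2a rose by 2.58 from 0 to 10 d (adjusted p = 0.0026). The chloride importer Slc12a2 and the exporter Slc12a5 both rose, by 1.01 and 0.51. Dnmt3b fell by 1.78, and Dnmt3a changed by -0.41 without passing. Glra1, the adult partner of Glra2, changed by 1.27 (adjusted p = 0.107). Aldoa and Aldoc rose by 0.59 and 0.86. The calls of 2 genes of these pairs were lost without single pools, with the highest adjusted p at 0.0914 for Bcan (without 0 d pool 1, change 0.47) and 0.148 for Dnmt3b (without 20 d pool 1, -1.06).

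**Figure D4:**
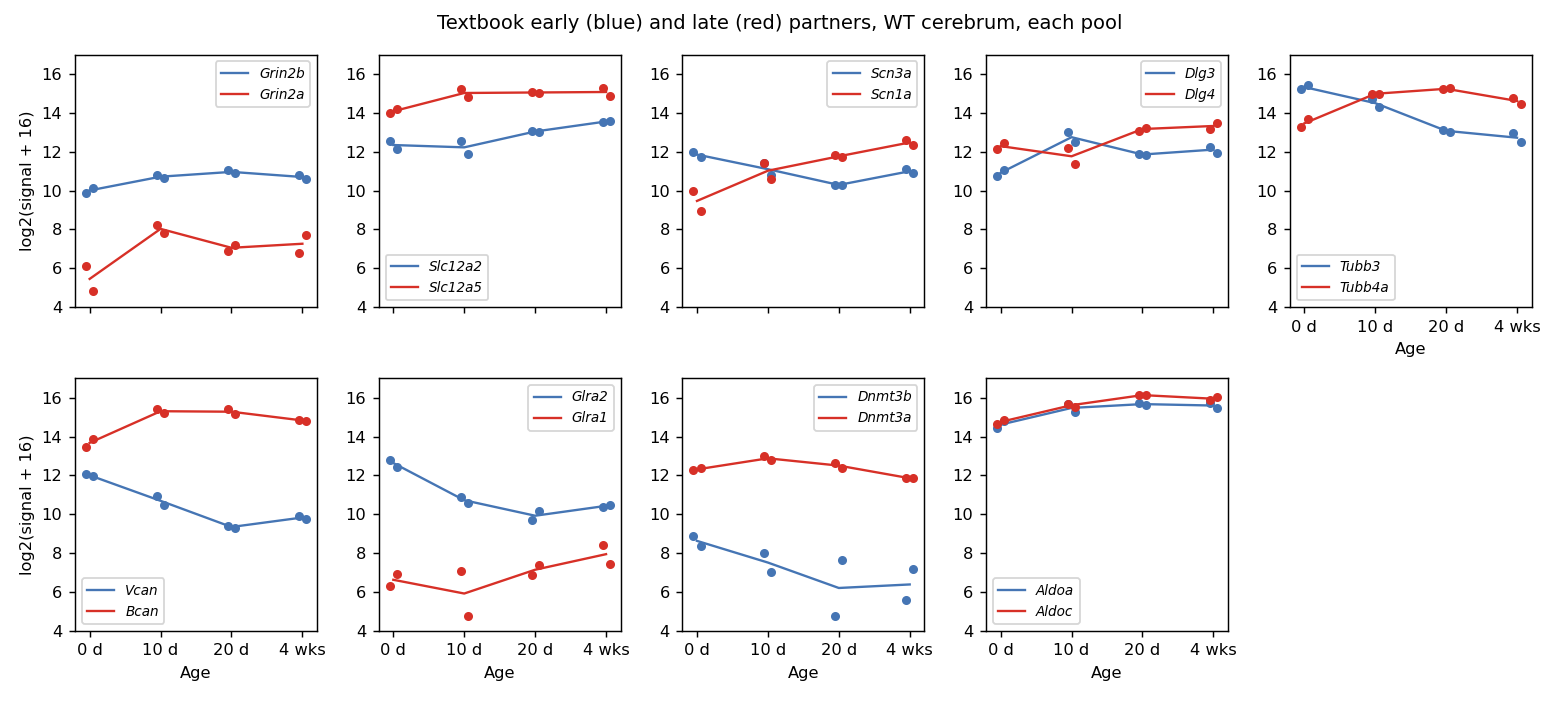
Each pool's value for the early (blue) and late (red) partner of 9 textbook pairs (y axis: log2(signal + 16), quantile normalized; x axis: age; points: pools; lines: means of 2 pools). Tubb3 falls and Tubb4a rises, while Slc12a2 and Slc12a5 both rise.

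The steps differed in how many genes they carried. From 0 to 10 d 1614 genes (8.87%) rose and 1157 (6.36%) fell, from 10 to 20 d 374 (2.06%) rose and 403 (2.22%) fell, and from 20 d to 4 wks 3 (0.0165%) rose and 4 (0.022%) fell. In the last step 4785 of 45037 probe sets had an unadjusted p under 0.05. In probe sets, the step from 0 to 10 d held 5022 (11.2%) with all pools and 2195 without 0 d pool 1, 3157 without 10 d pool 2, 3461 without 0 d pool 2 and 3550 without 10 d pool 1, and 3030 without both pools with cerebellar markers. The step from 10 to 20 d held 1665 (3.7%) with all pools and 496 without 20 d pool 1, 555 without 10 d pool 1, 624 without 20 d pool 2 and 1084 without 10 d pool 2, and 367 without both pools with cerebellar markers. Of the genes that rose from early to late, 53.5% had their largest step before 10 d and 41.2% between 10 and 20 d. Of those that fell, 39.2% had it before 10 d and 52.2% between 10 and 20 d. These genes were chosen from the same values by late minus early, a contrast in which the step from 10 to 20 d weighs most. The choice favours genes that changed in that step, so these shares cannot date the change.

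The largest changes before 10 d were rises of Mobp (7.57), Mbp (5.45) and Arc (5.09) and falls of Igfbpl1 (-4.30), Islr2 (-4.28) and the zinc finger gene Zfp558 (-3.97, but -2.67 and adjusted p = 0.0738 without 10 d pool 1). Islr2 did not stay low, measuring 13.53 and 13.52 at 0 d, 9.81 and 8.69 at 10 d, 8.78 and 8.36 at 20 d and 10.65 and 10.68 at 4 wks. Between 10 and 20 d they were rises of Mal (4.16), Gm20199 (3.61) and Marf1 (3.50) and falls of the integrin subunit Itga5 (-3.75), the kinase Map4k1 (-3.44) and the sodium-calcium exchanger Slc8a2 (-3.38). The fall of Itga5 shrank to as little as -0.833 in 15 alternative fits, of which 1 did not pass. The calls of Gm20199 and Slc8a2 were lost without any of the 4 pools of this step (adjusted p up to 0.133 without 20 d pool 1 and 0.229 without 10 d pool 1), and that of Map4k1 without 3 of them (up to 0.0772, without 10 d pool 2).

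After 20 d, 7 genes passed. Ncan, the matrix proteoglycan neurocan of the young brain, measured 13.49, 14.42, 14.26, 14.11, 14.1 and 14.25 in the pools up to 20 d and 12.62 and 12.33 at 4 wks, a fall by 1.70 (adjusted p = 0.0344). Its 4 wks pools lay below all others. Nfasc, an adhesion molecule of the node of Ranvier, fell by 1.27 and Pfn1, a regulator of actin named here after its value was seen, by 1.17, beside the fall of Hr. Serpinb1a, a protease inhibitor, measured 5.08 to 7.86 in the pools up to 20 d and 10.05 and 10.68 at 4 wks, a rise of 3.83 (adjusted p = 0.0463). Itga5 rose by 3.0, from 5.3 and 4.88 to 7.82 and 8.36, back into the range of its early pools of 6.93 to 9.04, and Rnf25 by 1.34. The rise of Itga5 shrank to as little as 0.27 in 15 alternative fits, of which 8 did not pass. With 2 pools at each age the step rested on few arrays, and between 1 and 33 probe sets passed when a pool was left out, 1 without 4 wks pool 2 and 33 without 4 wks pool 1, against 15 (0.0333%) with all. The calls of Hr, Ncan and Nfasc were lost without any of the 4 pools of these ages (adjusted p up to 0.247, 0.274 and 0.248, each without 4 wks pool 2), and those of Serpinb1a, Rnf25 and Itga5 without 3, 3 and 2 of them (up to 0.349 and 0.254 without 20 d pool 2 and 0.248 without 4 wks pool 2).

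Of 18193 genes, 68 passed a step in one direction and a later step in the other, against 28 without the pools with cerebellar markers. Neighbouring steps share the pools of the age between them, with opposite signs. A deviation of these pools alone can give such a profile, so the 2 calls are not independent. Dhrs7c measured 4.94 and 4.98 at 0 d, 8.27 and 6.95 at 10 d, 4.59 and 4.83 at 20 d and 4.71 and 5.12 at 4 wks, and Plekhs1, Hcls1, Nos2 and Abca7 rose to 10 d and fell to 20 d in the same way. Without 10 d pool 1 the steps of Dhrs7c were 1.99 (adjusted p = 0.235) and -2.24 (adjusted p = 0.278). Syngr4, a synaptogyrin, measured 7.4 and 7.41 at birth, 4.68 and 4.56 at 10 d and 7.09 to 8.42 late, and its fall to 10 d lost its call without any of the 4 pools of that step (adjusted p up to 0.0791, without 0 d pool 1). A930001A20Rik, Cchcr1 and Pam, an enzyme that amidates peptides, also fell to 10 d and rose to 20 d. All of these genes lost the call of a step without some single pool. The rise of Abca7 to 10 d (adjusted p up to 0.107), the falls of Hcls1 (up to 0.268) and Nos2 (up to 0.11) to 20 d and the rise of A930001A20Rik to 20 d (up to 0.141) were lost without any of the 4 pools of the step. The fall of Abca7 was -0.7 (adjusted p = 0.418) without 20 d pool 1, and the rise of Cchcr1 to 20 d was 1.21 (adjusted p = 0.424) without 20 d pool 2. The fall of Plekhs1 and the rise of Pam to 20 d were lost without 3 of the pools (up to 0.15 without 20 d pool 1 and 0.0821 without 10 d pool 2).

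The changes in cerebrum were set against those in WT cerebellum at the same ages by a test of the difference. In 1367 genes (7.51%) the change differed between the regions, with 814 (4.47%) changing more upward in cerebrum and 553 (3.04%) less. In probe sets 56% of these calls were upward, and 39.9% with centred arrays. Vip rose by 2.62 in cerebrum and changed by -1.14 in cerebellum (difference 3.76, adjusted p = 2.03e-06). The myosin light chain Myl1 changed by 2.33 and -1.79 (difference 4.12) and Rasl10a by 2.06 and -1.70 (difference 3.76). Cenpa, a centromere histone, changed by -1.16 in cerebrum and -4.88 in cerebellum (difference 3.71), and Gm11627 also differed. In the other direction Sla, an adaptor protein, measured 13.2, 13.23, 11.84 and 11.76 in the early cerebrum pools and 9.07 to 9.71 in the late ones, a fall by 3.12 against a change of 1.13 in cerebellum (difference -4.25, adjusted p = 1.01e-06). Dao, Crtam, Cbln3 and Gabra6 rose in cerebellum with differences of -4.61, -4.32, -3.99 and -3.89.

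Within the lists, the difference passed for 8 of 17 genes of myelin structure, whose median change was 2.87 in cerebrum and 2.08 in cerebellum. It was upward in cerebrum for 7, against 4.47% of all genes, and 6 of these rose in both regions, while Cd9 changed by 0.15 in cerebrum and fell by 0.77 in cerebellum. It was downward for Ndrg1, named after its value was seen, which rose by 0.92 and 2.08. Mobp rose by 6.73 in cerebrum and 4.00 in cerebellum (difference 2.74, adjusted p = 0.000376), and Mal by 5.76 and 3.18 (difference 2.59, adjusted p = 3.11e-05). The difference for Mog, 0.84, did not pass (adjusted p = 0.156). The median change of cell cycle genes was -1.67 in cerebrum and -2.57 in cerebellum, and for 6 of 31 the change differed, each less downward in cerebrum. Microglia markers had 4 rises and no fall in cerebrum and no rise and 6 falls in cerebellum (where 13.4% of all genes rose and 16.4% fell), and the difference passed for 4 of 14, P2ry12 at 1.66 among them. Gabrd and Grin2c, subunits used by granule cells, rose less in cerebrum than in cerebellum (differences -2.14 and -2.18, adjusted p = 3.92e-05 and 0.00128). For Pvalb the difference was -0.01 (adjusted p = 0.993). For Psap it was -0.80 (adjusted p = 0.00611), with 0.22 in cerebrum and 1.03 in cerebellum.

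The cerebrum of PS-/- mice, measured on arrays that the WT comparison did not use, gave a course of the same kind between 0 and 10 d and 20 and 25 d. Its ages and genotype differ from those of WT, and the difference between genotypes was not tested here. Of the 2187 genes that rose in WT cerebrum 1368 (62.6%) also rose in PS-/- cerebrum, which is 64.8% of the PS-/- rises, and 6 fell. Of the 2303 that fell 1346 (58.4%) also fell, which is 66.9% of the PS-/- falls, and 3 rose. All genes of PS-/- cerebrum rose in 11.6% and fell in 11.1% of cases. Mobp changed by 6.50 in PS-/- and 6.73 in WT cerebrum, Mal by 4.76 and 5.76, Dcx by -3.74 and -3.81 and Dpysl3 by -2.95 and -3.16. Of the lists, microglia markers rose in 13 of 14 cases in PS-/- cerebrum (median 1.73) and 4 of 14 in WT (median 0.38), and genes of sphingolipid breakdown in 9 of 15 (median 0.69) and 5 of 15 (median 0.22). Ugt8a rose by 2.86 and 3.88, and cell cycle genes fell in 25 and 23 of 31 cases.

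**Figure D5:**
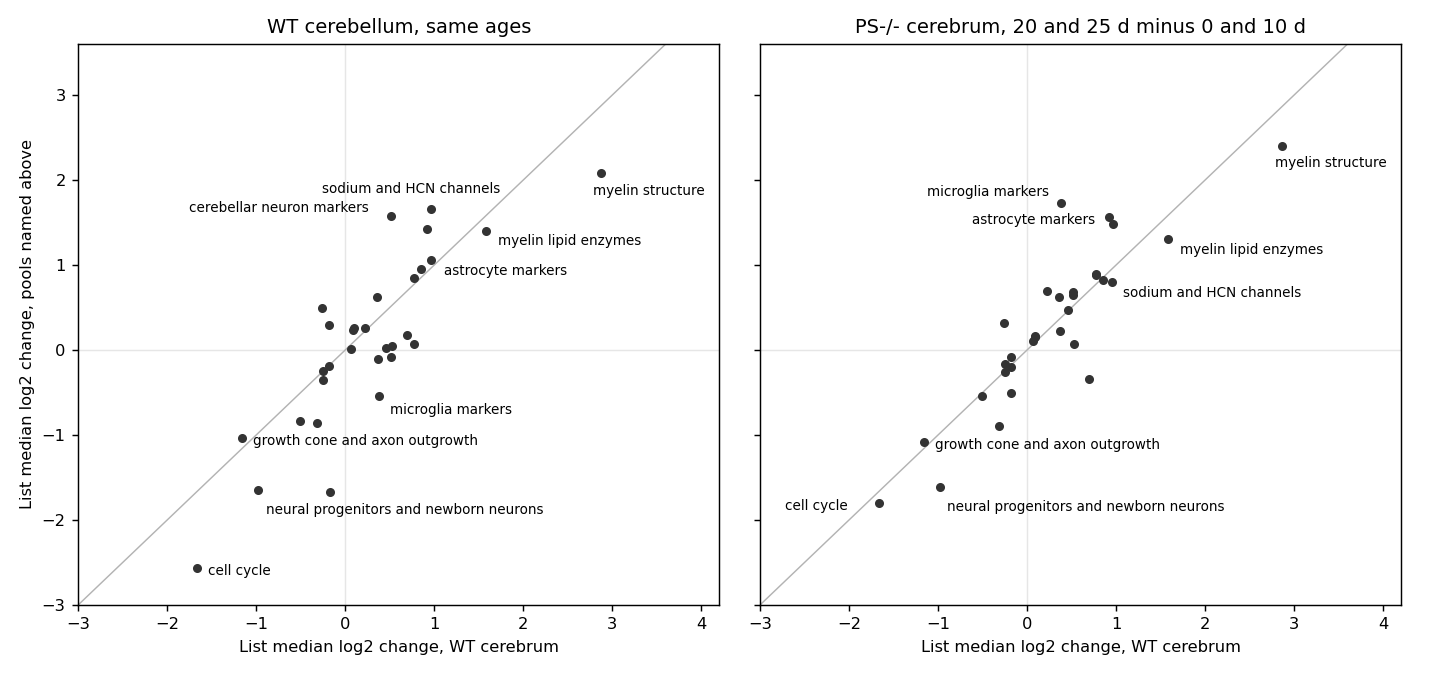
Median change of each of the 31 gene lists in WT cerebrum (x axis, log2) against its median change in WT cerebellum at the same ages (left, y axis) and in PS-/- cerebrum (right, y axis), with the line of equal change. Microglia markers lie at 0.38 in WT cerebrum, -0.55 in WT cerebellum and 1.73 in PS-/- cerebrum, and cell cycle genes at -1.67, -2.57 and -1.80.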

How the data were processed

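RNA pools were measured on Affymetrix mouse whole-genome arrays, 1 pool per array. The intensities are linear signals per probe set deposited by the authors, made in GCOS 1.1 per the submitters' notes on processing and brought by the authors to a 2% trimmed mean of 1500 on every array. The RMA values of the paper's methods need single-probe data and were not rebuilt.

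After log2(signal + 16) and quantile normalization over 68 arrays, a mean for each region and age was fitted with limma 3.58.1 (R 4.3.3; eBayes with an intensity trend) to the 24 WT arrays (12 groups, 12 residual degrees of freedom) and, for PS-/-, to 16 arrays (8). Values of p were adjusted by Benjamini-Hochberg over 45037 probe sets, without 64 controls and with no filter on dim ones. A gene is its brightest probe set. Of 45101 probe sets 34958 have 1 symbol, 932 several and 9211 none, and 34754 symbols were updated through gene IDs. Of 535 list entries 485 were matched.

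The gene lists, members and tests were chosen with earlier results of these data known. Named are the 10 largest rises and falls without overlap of pools, the 4 members of each list with the smallest p, partners of 9 pairs, the 3 largest rises and falls of each step, the 5 leading transient genes each way, the 5 largest region differences each way, Psap and Cebpd. Scripts were tested on simulated data. Precision is limited by the 2 arrays of each group. Same-numbered pools of different ages did not deviate together. Alternatives were another normalization, pseudocount (64), signal filter (mean of 200), spread model, threshold (FDR of 0.2 and 1.5-fold, as in the paper's methods) and set of pools.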

Additional observations from a re-analysis of the deposited data

Results flagged for a closer look

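Of 330 groups of 4 early or 4 late pools of genes named above, 8 held a pool far from the others (its gap to the next pool over the range of the 4, given in brackets, above the critical value of Dixon's test, which chance passes in about 1 of 20 groups). All 8 were late groups. Ctss (0.873) measured 13.47 in 4 wks pool 2 and 12.86 to 12.94 in the others, and Vamp1 (0.904) measured 13 in 20 d pool 1 and 12.80 to 12.82 in the others. The late pools of Mbp (1.0) all lay within 16.44 to 16.52. The others were Nes (0.958), Neurod1 (0.918), Neurod6 (0.856), Lhx2 (0.840) and Nos2 (0.834).

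Of the 165 genes named in the text, 53 changed differently in cerebrum and cerebellum from early to late. The test was that of the difference, at an adjusted p under 0.05, which 7.51% of all genes passed. The 53 include Vip, Myl1, Rasl10a, Gm11627, Cenpa, Sla, Dao, Crtam, Cbln3 and Gabra6, which the rule for named genes picked by this difference. Their presence follows from that choice, so the share of named genes is not comparable with that of all genes. Beside Mobp (2.74) and Mal (2.59), the oligodendrocyte genes Ugt8a (1.45), Aspa (1.34), Mbp (1.3), Opalin (1.21), Bcas1 (1.17), Cldn11 (1.07), Cd9 (0.91) and Pdgfra (0.80) changed more upward in cerebrum. So did the neuronal genes Vip (3.76), Arc (2.53), Glra2 (2.33), Scn3a (2.26), Gabra4 (1.77), Nrgn (1.38), Camk2n1 (1.37), Grin2b (1.27) and Syn2 (0.60), the forebrain markers Lhx2 (2.29), Tbr1 (1.77) and Neurod6 (1.33) and the chromatin and progenitor genes Cenpa (3.71), Hmgb2 (2.50), Hmgb3 (0.84) and Sox4 (0.80). Others in this direction were Myl1 (4.12), Rasl10a (3.76), Gm11627 (3.72), A930001A20Rik (2.66), P2ry12 (1.66), Ncan (1.02), Cyp46a1 (0.90) and Ntsr2 (0.71).

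The difference ran the other way for Dao (-4.61), Crtam (-4.32), Sla (-4.25), Cbln3 (-3.99), Gabra6 (-3.89), Grin2c (-2.18), Gabrd (-2.14), Abca7 (-2.12), Reln (-2.01), Neurod1 (-1.86), St8sia5 (-1.52), Hr (-1.40), Tnc (-1.14), Nptx1 (-0.96), Crmp1 (-0.91), Rnf25 (-0.83), Psap (-0.80), Gria1 (-0.77) and Ncam1 (-0.69).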

How the results depend on the processing

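Of 4321 alternative fits of the 223 results on 176 named genes, 3890 kept direction and side of the threshold, 386 lost the call, 44 gained it and 1 reversed, the change of Gm2a (-0.211 as the mean of its probe sets). Of 190 of these results that passed, 42 lost the call without some single pool. Counts here are probe sets, except for transient genes. From early to late 9367 passed, 3848 with the ages of each group pooled into the spread and 6717 to 7957 without a pool. The step to 10 d (5022) had 9104 calls at the methods' thresholds, 3030 without the 2 pools with cerebellar markers and 2195 to 3550 without a pool. The step to 20 d (1665) had 4009 with centred arrays, 934 without the intensity trend, 5478 at the methods' thresholds, 367 without the 2 pools and 496 to 1084 without a pool, and 14.8% of calls were higher with centred arrays against 46.4%, and 60.7% with the authors' scaling. The step to 4 wks (15) had 3 with centred arrays, 37 with the signal filter, 7 without the trend, 6 without moderation, 279 at the methods' thresholds, 3 with the 8 arrays alone and 1 to 33 without a pool. The difference between regions (2425) had 1303 without the trend, 6076 at the methods' thresholds and 1422 to 3434 without a pool, with the lowest counts without cerebrum 0 d pool 2 (1422), 4 wks pool 2 (1438) or 20 d pool 2 (1531) or cerebellum 4 wks pool 2 (1537), and 39.9% of calls were higher with centred arrays against 56%. For PS-/- cerebrum (7691) the counts were 3439 with pooled ages and 5872 to 6242 without a pool, and 32.2% were higher with centred arrays against 48.7%. Transient genes (68) numbered 191 with centred arrays, 29 without the trend and 28 without the 2 pools. The causes were not tested.

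Same-numbered WT cerebrum pools of different ages correlated in their deviations by -0.03 to 0.063, so the numbers do not pair them. Cerebrum and cerebellum pools of one number, which may share mice, correlated by 0.244 at 0 d and -0.045 to 0.043 at the other ages, and with them as blocks (chosen after seeing the data) 3343 probe sets differed between regions against 2425. With the replicate number as a block, 9195 probe sets passed from early to late, 4858, 1550 and 11 in the steps, 2306 for the regions and 7639 for PS-/- cerebrum. With 2 pools per age, small changes after 20 d were not detectable here, and larger ones could be missed. In simulated data the step to 4 wks found 5.97% of 2-fold and 41.8% of 4-fold changes, with 67 probe sets of each size. Signals near the floor carry no order.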
